A study of Mus musculus with 12 samples.

Results

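Dual-specificity phosphatases (DUSPs) of the MAP kinase phosphatase kind remove phosphate from both the threonine and the tyrosine that switch a MAP kinase on. The 9 genes described here, Dusp1, Dusp2, Dusp3, Dusp4, Dusp5, Dusp6, Dusp7, Dusp10 and Dusp16, were taken by symbol from a table of 40847 genes. All 9 passed the filter on low counts that left 14749 genes for testing. Dusp4 passed through its highest group only, since it had at most 10 counts in any library of the other groups.

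The RNA came from FLAMs (Fetal Liver Alveolar-Like Macrophages), a mouse culture model of the macrophages that live in the airspaces of the lung, started from fetal liver and not from lung. All 12 cultures received recombinant mouse GM-CSF at 30 ng/ml. The 4 groups of 3 libraries were untreated cells, cells kept in recombinant human TGFβ1 at 20 ng/ml (TGFβ), cells given the TLR2 ligand Pam3CSK4 at 25 ng/ml for 18 h (Pam3), and cells given both (Pam3+TGFβ). The title of the series concerns TGFβ as a primer of the TLR2 response. The design gives a Pam3 response without and with TGFβ, a TGFβ effect without and with Pam3, and an interaction, computed as the log2 change with Pam3 in TGFβ cells less the log2 change with Pam3 in cells lacking TGFβ. The labels give no mouse strain, sex or age, and they do not say whether replicates were separate isolations, so p-values measure the spread between these libraries, which may be technical. Only 18 h of Pam3 was sampled, so a change that came and went earlier was not measured.

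TLR2 signals through MyD88 and TAK1 to the MAP kinases ERK, JNK and p38, and TGFβ receptors can reach the same kinases beside their SMAD signal. Many DUSP genes are themselves induced by MAP kinase activity and act as feedback brakes that limit cytokine output in macrophages. The inducible nuclear enzymes are Dusp1, Dusp2, Dusp4 and Dusp5, of which Dusp5 acts on ERK. Dusp6 and Dusp7 are cytoplasmic and prefer ERK. Dusp10 and Dusp16 prefer JNK and p38. Dusp3, also called VHR, is a small enzyme without the amino-terminal kinase-binding domain that the other 8 share.

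The members share a catalytic signature that was not used to choose them, a histidine and a cysteine followed by 5 other residues and an arginine. The 24 coding bases of that signature are given to show the stretch that the members share and the bases at which they differ there. The sequences were read from the canonical GENCODE M39 transcripts, and capitals mark the histidine and cysteine codons at the start and the arginine codon at the end.
Dusp1: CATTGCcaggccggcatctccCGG
Dusp2: CACTGCcaagctggcatctctCGC
Dusp4: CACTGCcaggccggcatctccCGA
Dusp5: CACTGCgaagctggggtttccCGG
Dusp6: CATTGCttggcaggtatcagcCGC
Dusp7: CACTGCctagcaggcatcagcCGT
Dusp10: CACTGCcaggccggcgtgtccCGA
Dusp16: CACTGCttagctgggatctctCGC
Dusp3: CATTGCcgcgagggctacagcCGC
Over the 36 pairs, 11 to 22 of the 24 bases were identical. Dusp4 shared 22 bases with Dusp1 and 22 with Dusp10, and the ERK-selective pair Dusp6 and Dusp7 shared 19. Dusp3 shared 11 to 16 bases with the others, and every pair without Dusp3 shared at least 13. The canonical coding sequences ran from 185 codons in Dusp3 to 660 in Dusp16.

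Promoter sequence was available for 8 of the 9 members in a RefSeq table of 300-base windows (250 bases before to 50 after the gene start, GRCm38.p6), and each of the 8 windows matched GRCm39 exactly. The RefSeq starts of Dusp7 and Dusp10 lie 688 and 708 bases from the canonical GENCODE starts, and their windows lie wholly downstream of those starts, so they do not describe the promoters of the canonical transcripts. Dusp4 is not in that table. Motifs for 8 kinds of factor site were searched on both strands. The first 200 bases of the window, which begin 250 bases before the RefSeq start, are given for Dusp1 and Dusp5, because these were the members that held the longer inducible motifs. Positions are on GRCm39, and capitals mark the cyclic AMP response element TGACGTCA, its shorter core TGACG (or CGTCA on the other strand), which lies within it, and CArG boxes, the sites of serum response factor.
Dusp1, chr17:26727497-26727696, minus strand: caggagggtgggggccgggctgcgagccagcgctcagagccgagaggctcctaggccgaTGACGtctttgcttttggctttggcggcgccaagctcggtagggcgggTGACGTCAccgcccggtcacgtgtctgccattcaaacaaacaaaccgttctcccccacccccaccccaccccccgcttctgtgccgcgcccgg
Dusp5, chr19:53517326-53517525, plus strand: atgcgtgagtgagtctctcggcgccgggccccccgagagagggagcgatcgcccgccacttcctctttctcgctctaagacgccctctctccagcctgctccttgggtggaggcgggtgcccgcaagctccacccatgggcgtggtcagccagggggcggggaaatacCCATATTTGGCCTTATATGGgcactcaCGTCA
TGACGTCA was found in Dusp1 alone of the 8 members and in 1.79% of 32851 promoters. TGACG was found in Dusp1, Dusp2, Dusp5 and Dusp16, and in 20.8% of all promoters. The Dusp5 window held 2 CArG boxes side by side, where 1.63% of promoters held any and 6 promoters (0.0183%) held at least 2. The SMAD core CAGAC was found in Dusp1 and Dusp2 (49.6% of all promoters), and the GC box GGGCGG in 7 of the 8, all but Dusp6 (35.7%). No member's window held the AP-1 letters TGANTCA (7.81% of promoters), the NF-kB consensus (8.46%) or the ETS letters CCGGAAGT (3.89%). A match describes the letters only, and no match says only that these letters are not in the window.

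Library totals ran from 34036650 to 44374115 counts. The libraries of untreated replicate 3, TGFβ replicate 2 and Pam3 replicate 1 stood apart from the other libraries of their groups: over genes, pairs with one of them differed by a chi-square of 133 to 220 per degree of freedom, against 9.99 to 28 for the other 6 pairs. The 4 rows that take up ribosomal RNA-like reads (LOC118568312, AY036118, Lars2 and Mir6236) held 4.44% to 7.65% of counts in 5 libraries (untreated 3, TGFβ 1 and 3, Pam3 2 and 3) and 0.124% to 1.47% in the other 7, among them every Pam3+TGFβ library. In each of the untreated, TGFβ and Pam3 groups, the library that stood apart was the only one on its side of this split. The chi-square was summed over genes with these 4 rows among them, so the features are not separate observations. The part of the 4 rows in it was not computed, so it does not show that the remaining genes of those libraries stand apart. Whether the features share a source was not tested. Results of the members that moved without the 3 libraries, or with the share of the 4 rows as a covariate, are given with those values. Genes of the other lists are given from the main fit only. All 7 macrophage markers had over 3 counts in every library, as had 7 of 8 alveolar macrophage markers (the exception was Fabp4, with 3 to 9 counts in the 6 libraries with TGFβ and 659 to 1339 in the other 6). Markers of the latter list went both ways between untreated and TGFβ, with mean levels of 32.2 and 300 CPM (count rate per library, scaled with TMM) for Siglecf, 5.05 and 72.3 for Ear1, and 2147 and 123 for Marco. The summed macrophage markers were lower with TGFβ, at 31700 to 35900 CPM in untreated, 16600 to 17500 in TGFβ, 34600 to 35700 in Pam3 and 25400 to 26100 in Pam3+TGFβ. Most of that sum was Lyz2 (mean 29820 CPM in untreated and 15250 in TGFβ), and Itgam (1088 and 38.8), Adgre1 (303 and 145), Cd68 (858 and 549) and Csf1r (983 and 820) were lower too. Other values were not: Mertk stood at 223 CPM in untreated and 222 in TGFβ, Fcgr1 at 81.1 and 91.3 (88.1 in Pam3 and 171 in Pam3+TGFβ), and Csf1r at 1235 in Pam3 and 1241 in Pam3+TGFβ. The 6 neutrophil markers summed to 13.1 to 15.5 CPM in untreated, 3.27 to 5.16 in TGFβ, 15.9 to 16.9 in Pam3 and 5.15 to 5.97 in Pam3+TGFβ. That difference was S100a8 (mean 13.8 CPM in untreated and 3.07 in TGFβ), while S100a9 stood at 0.254 and 0.993 CPM, with Mpo at 0 counts and Elane and Ly6g at 4 counts or fewer in every library. The part of these marker differences in the results was not tested. T cell, erythroid and mast cell lists summed to 0 to 1.2 CPM, with Cd3e, Cd3g, Hbb-bs, Mcpt4 and Tpsb2 at 0 counts. The mast cell sum was lower with TGFβ, at 0.263 to 1.2 CPM in untreated and 0 to 0.0741 in TGFβ. It was 0.265 to 0.731 in Pam3 and 0 to 0.136 in Pam3+TGFβ. A further marker list is not given. Trac, of the T cell list, was counted 10, 10 and 15 times with both agents present and 0 times in the other 9 libraries. Dendritic cell markers summed to 16.8 to 24.9 CPM, endothelial markers to 2 to 4.03 and stromal markers to 0.361 to 1.28. Within the dendritic and endothelial sums, single genes went both ways between untreated and TGFβ. Means were lower for Zbtb46 (4.64 and 1.42 CPM), Cdh5 (0.888 and 0.0514) and Kdr (0.865 and 0.082). They were higher for Clec9a (16.7 and 20.45) and Pecam1 (0.895 and 2.46). Hepatocyte markers, of which 1 (Afp) had over 3 counts in every library and Ttr had none, summed to 5.8 to 7.7 CPM in the other groups and 8.41 to 10.1 in Pam3+TGFβ. In bulk RNA, fewer cells of a type and less RNA per cell cannot be told apart.

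The nuclear enzyme Dusp1, the best known brake on p38 and JNK in activated macrophages, was lowest in cells with TGFβ alone. Its level was 10.6, 9.48 and 9.24 CPM in untreated libraries, 5.56, 5.28 and 5.79 in TGFβ, 7.80, 9.03 and 7.53 in Pam3, and 11.1, 7.87 and 8.99 in Pam3+TGFβ. All 3 TGFβ libraries lay below every other library. Every untreated library lay above every Pam3 library, and Pam3+TGFβ overlapped both. In the order of the means, untreated (9.76 ± 0.711, SD, n = 3), Pam3+TGFβ (9.32 ± 1.63) and Pam3 (8.12 ± 0.797) did not differ from their neighbours (adjusted p = 0.661 and 0.217), while Pam3 was above TGFβ (5.55 ± 0.253; adjusted p = 0.000736). Adjusted p-values throughout come from edgeR's quasi-likelihood test with Benjamini-Hochberg adjustment over all 14749 genes, and genes are called at an adjusted p under 0.05. TGFβ lowered Dusp1 in resting cells, by -0.82 (standard error, SE, 0.127) on the log2 scale, with an adjusted p of 6.14e-06. With Pam3 present the TGFβ effect was 0.19 (95% interval -0.0915 to 0.479; adjusted p = 0.217). Pam3 raised Dusp1 in the cells with TGFβ by 0.75 (SE 0.127, adjusted p = 3.26e-05), whereas without TGFβ its change was -0.26 (interval -0.549 to 0.0202; adjusted p = 0.154). The interaction was 1.01 (SE 0.177, adjusted p = 0.000156), the largest called among the 9.

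**Figure D1:**
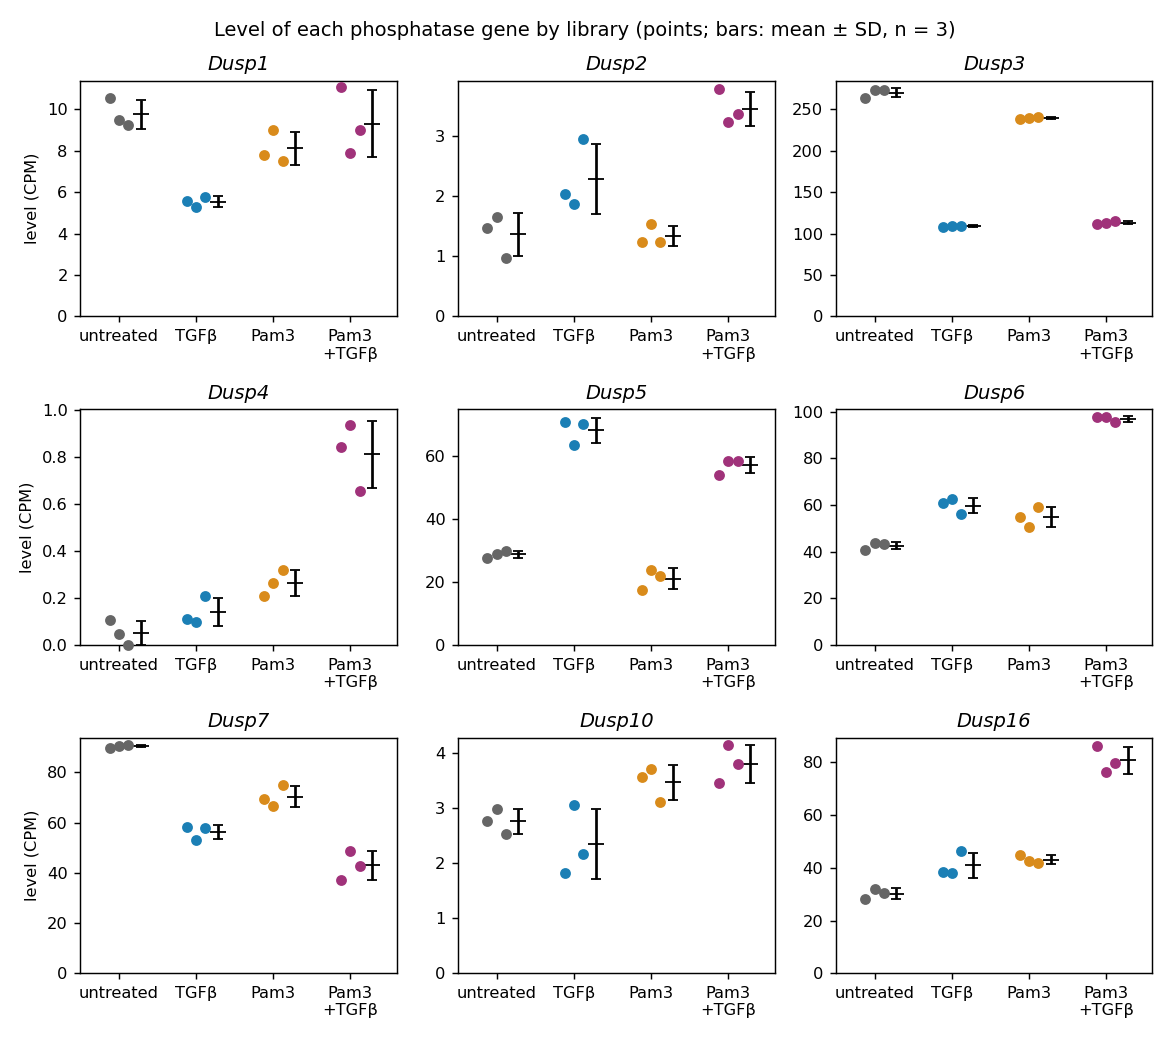
Level of each of the 9 members (CPM, linear axis from 0) in the 3 libraries of each of the 4 groups; points are libraries, bars are group means with SD. Dusp1 is lowest with TGFβ alone (5.55 CPM), Dusp3 and Dusp7 are low wherever TGFβ is present, and Dusp6 and Dusp16 are highest with both agents (96.9 and 80.6 CPM).

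Dusp2, a nuclear enzyme mostly known from activated immune cells, was low and higher with TGFβ. Untreated libraries had 56, 69 and 34 counts (1.47, 1.66 and 0.97 CPM), TGFβ libraries 74, 76 and 113 (2.05, 1.88 and 2.96 CPM), Pam3 libraries 48, 58 and 39 (1.25, 1.54 and 1.24 CPM), and Pam3+TGFβ libraries 130, 121 and 149 (3.78, 3.24 and 3.37 CPM). The Pam3+TGFβ libraries were above all others, and the TGFβ libraries were above all libraries without TGFβ. TGFβ raised Dusp2 by 0.74 (SE 0.252, adjusted p = 0.0167) without Pam3 and by 1.36 (SE 0.251, adjusted p = 6.81e-05) with Pam3. The call without Pam3 was lost when untreated replicate 3 (0.55, adjusted p = 0.087) or TGFβ replicate 3 (0.54, adjusted p = 0.115) was left out. The Pam3 response with TGFβ, 0.59 (SE 0.24), missed the threshold at an adjusted p of 0.0535, and it passed without untreated replicate 2 (adjusted p = 0.0456), untreated replicate 3 (0.0323) or TGFβ replicate 3 (0.0232). Without TGFβ the Pam3 response was -0.03 (interval -0.635 to 0.573), and the interaction was 0.62 (interval -0.195 to 1.44; adjusted p = 0.281).

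Dusp4, a nuclear enzyme close to Dusp1 in sequence, was near the floor of detection in all groups but Pam3+TGFβ. It had 4, 2 and 0 counts in untreated libraries, 4, 4 and 8 in TGFβ, 8, 10 and 10 in Pam3, and 29, 35 and 29 in Pam3+TGFβ. The Pam3+TGFβ libraries did not overlap any other group, and untreated and TGFβ libraries overlapped. From summed counts scaled by library size, Pam3+TGFβ was 5.75 times TGFβ (95% exact binomial interval 3.36 to 10.5, counting error only) and 3.08 times Pam3 (2 to 4.88). Pam3 was 4.97 times untreated (2.02 to 14.7, from 28 against 6 counts), and TGFβ 2.66 times untreated (0.99 to 8.31). Because Dusp4 passed the filter on low counts through Pam3+TGFβ alone, its calls against that group are descriptions and support nothing. The edgeR values were 2.51 (SE 0.642, adjusted p = 0.00271) for the Pam3 response with TGFβ. The test also called the Pam3 response without TGFβ (2.26, SE 0.777, adjusted p = 0.0434), a call lost in 11 of the 12 fits that left out 1 library (all but untreated replicate 1; adjusted p up to 0.162, without untreated replicate 3) and at an adjusted p of 0.172 without the 3 libraries that stand apart. The TGFβ effect with Pam3 (1.61, SE 0.603, adjusted p = 0.0313) was lost without any of the 6 libraries compared, in turn (adjusted p from 0.0551 to 0.112), and at 0.0791 without the 3 libraries that stand apart. The interaction was 0.25 with an interval of -2.73 to 3.22, so no difference in the Pam3 response could be resolved at this depth.

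Dusp5, the nuclear phosphatase that acts on ERK alone, was set mainly by TGFβ. It stood at 27.7, 28.7 and 29.9 CPM in untreated libraries, 70.7, 63.6 and 70.0 in TGFβ, 17.4, 23.8 and 22.0 in Pam3, and 54.1, 58.4 and 58.5 in Pam3+TGFβ. No groups overlapped, and the order was TGFβ, Pam3+TGFβ, untreated, Pam3, with each neighbour called (adjusted p = 0.0127, 2.64e-10 and 0.000361). TGFβ raised Dusp5 2.37-fold without Pam3 (log2 1.24, SE 0.0821, adjusted p = 4.2e-12) and 2.71-fold with it (log2 1.44, SE 0.0839, adjusted p = 4.94e-13). Pam3 lowered it by -0.45 (SE 0.0846) without TGFβ and by -0.26 (SE 0.0797) with TGFβ. The latter call was lost without Pam3+TGFβ replicate 1 (-0.24, adjusted p = 0.0535). Its interaction was 0.19 (interval -0.0735 to 0.462; adjusted p = 0.309), which became 0.30 (adjusted p = 0.0469) with the share of the 4 ribosomal RNA-like rows as a covariate.

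The cytoplasmic pair Dusp6 and Dusp7, both ERK-selective, ran in opposite directions under both agents. Dusp6, whose transcript is a common readout of ERK activity, stood at 40.9, 43.7 and 43.1 CPM in untreated libraries, 60.9, 62.5 and 56.0 in TGFβ, 54.9, 50.8 and 59.2 in Pam3, and 97.6, 97.6 and 95.5 in Pam3+TGFβ. Every library with both agents was far above all others, untreated libraries were below all others, and the groups with 1 agent overlapped (adjusted p = 0.0996 between them). TGFβ raised Dusp6 1.41-fold without Pam3 and 1.76-fold with it (log2 0.49 and 0.82, SE 0.0623 and 0.0617). Pam3 raised it 1.29-fold without TGFβ and 1.62-fold with it (log2 0.37 and 0.70, SE 0.0625 and 0.0614, adjusted p = 9.45e-05 and 8.47e-10). The interaction was 0.33 (SE 0.0874, adjusted p = 0.00965), lost without TGFβ replicate 3 (0.26, adjusted p = 0.0614).

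Dusp7 stood at 89.9, 90.6 and 90.9 CPM in untreated libraries, 58.1, 53.3 and 57.8 in TGFβ, 69.4, 66.8 and 74.8 in Pam3, and 37.4, 48.8 and 42.7 in Pam3+TGFβ. The 4 groups did not overlap, and each neighbour in the order untreated, Pam3, TGFβ, Pam3+TGFβ was called (adjusted p = 0.000598, 0.000607 and 0.00011). TGFβ lowered Dusp7 by -0.68 (SE 0.0723) without Pam3 and by -0.71 (SE 0.0732) with it, and Pam3 lowered it by -0.36 (SE 0.0719) and -0.39 (SE 0.0732). On the log2 scale the interaction was -0.03 with an interval of -0.265 to 0.208. Per kilobase of exon, the level of Dusp6 over that of Dusp7 was 0.55, 0.583 and 0.573 in untreated libraries, 1.27, 1.42 and 1.17 in TGFβ, 0.956, 0.919 and 0.956 in Pam3, and 3.16, 2.42 and 2.70 in Pam3+TGFβ. Dusp7 was thus the more abundant of the pair in resting cells and Dusp6 in every library with TGFβ. This pair was set side by side after its values were seen, so the ratio is a description and was not tested. With the canonical transcript as the length, the mean ratios were 0.648, 1.47, 1.08 and 3.14, which moves Pam3 to the other side of 1.

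**Figure D2:**
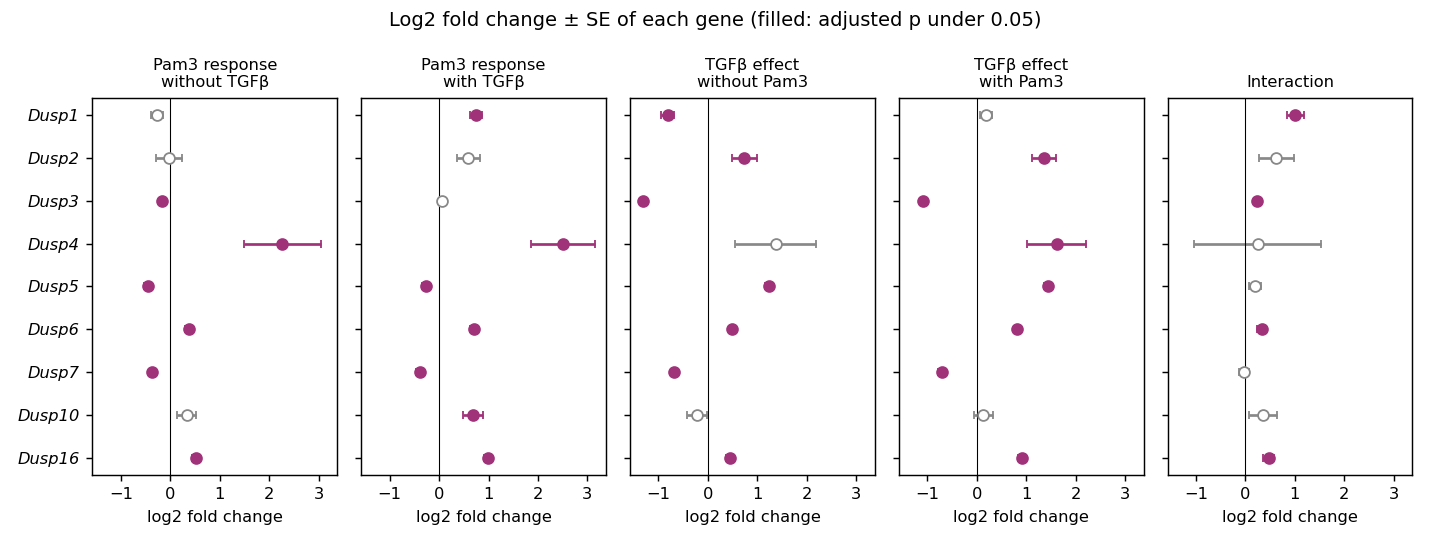
Log2 fold change of each member in the 5 comparisons, from the edgeR fit of all 12 libraries. Bars are ± SE, and filled points are called at an adjusted p under 0.05. The interaction is called for Dusp1 (1.01), Dusp16 (0.47), Dusp6 (0.33) and Dusp3 (0.23), all above 0.

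The JNK and p38 phosphatases were Dusp10 and Dusp16. Dusp10 was low, at 2.76, 2.98 and 2.54 CPM in untreated libraries, 1.83, 3.06 and 2.17 in TGFβ, 3.56, 3.72 and 3.11 in Pam3, and 3.46, 4.15 and 3.80 in Pam3+TGFβ. The Pam3 libraries, with or without TGFβ, lay above all untreated and TGFβ libraries. Pam3 raised Dusp10 by 0.69 (SE 0.198, adjusted p = 0.00709) in cells with TGFβ, a call lost without TGFβ replicate 1 (0.52, adjusted p = 0.0618). Without TGFβ the change was 0.33 (interval -0.128 to 0.783; adjusted p = 0.292), and the interaction was 0.36 (interval -0.284 to 1.00; adjusted p = 0.464). The TGFβ effects were -0.23 (adjusted p = 0.368) and 0.13 (adjusted p = 0.614) without and with Pam3.

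Dusp16, also called MKP-7, a JNK-directed enzyme with a long carboxy-terminal tail, was raised by both agents. It stood at 28, 32.1 and 30.4 CPM in untreated libraries, 38.2, 38.1 and 46.3 in TGFβ, 44.8, 42.4 and 41.8 in Pam3, and 86.1, 76.2 and 79.6 in Pam3+TGFβ. Libraries with both agents were above all others, untreated libraries below all others, and the TGFβ and Pam3 groups overlapped (adjusted p = 0.428). Pam3 raised Dusp16 1.43-fold without TGFβ (log2 0.51, SE 0.0757, adjusted p = 1.63e-05) and 1.97-fold with it (log2 0.98, SE 0.0743, adjusted p = 4.87e-11). TGFβ raised it 1.35-fold without Pam3 and 1.88-fold with it (log2 0.44 and 0.91, SE 0.0757 and 0.0743). The interaction was 0.47 (SE 0.106, adjusted p = 0.00238), and it passed the threshold in all 12 fits that left out 1 library. Like Dusp6, Dusp16 was raised by each agent, and its Pam3 change was larger with TGFβ.

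Dusp3, the small atypical member, was the most abundant in resting cells and had the largest fall with TGFβ. It stood at 264, 274 and 274 CPM in untreated libraries, 108, 110 and 110 in TGFβ, 239, 240 and 241 in Pam3, and 112, 113 and 116 in Pam3+TGFβ. The 6 libraries with TGFβ lay far below the 6 without. TGFβ lowered Dusp3 to 0.403 of its level without Pam3 (log2 -1.31, SE 0.0409, adjusted p = 4.39e-19) and to 0.473 with it (log2 -1.08, SE 0.0407, adjusted p = 2.79e-17). Pam3 lowered it slightly without TGFβ (log2 -0.17, SE 0.04, adjusted p = 0.00273) and its change with TGFβ was 0.06 (interval -0.0377 to 0.15; adjusted p = 0.305). The interaction was 0.23 (SE 0.057, adjusted p = 0.00582). Without the 3 libraries that stand apart, the Pam3 call (-0.16, adjusted p = 0.0649) and the interaction (0.21, adjusted p = 0.0909) both missed the threshold.

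Counted over the 9 members, Pam3 without TGFβ gave 6 calls (3 higher, 3 lower), where 18.3% of the 14749 genes were called, 9.62% higher and 8.66% lower. Pam3 with TGFβ gave 7 (5 higher, 2 lower; 38.5% of all genes, 20.4% higher and 18.1% lower), TGFβ without Pam3 gave 7 (4 higher, 3 lower; 51% of all genes, 22.9% higher and 28.1% lower) and TGFβ with Pam3 gave 7 (5 higher, 2 lower; 45.3% of all genes, 21.5% higher and 23.8% lower). The interaction was called for 4, all higher, where 15.9% of all genes were called, 10.3% higher and 5.67% lower. The comparisons used only to order levels called 52.1% (both agents against untreated) and 54% (Pam3 against TGFβ) of all genes. Dusp4 is among the higher calls of both Pam3 responses and of the TGFβ effect with Pam3, and it passed the filter through its highest group alone. Over the other 8 members the calls were 5, 6, 7, 6 and 4. None of these counts is a test of the family. The median interaction of the 9 was 0.33, against 0.00 over all tested genes, and 8 of the 9 values were above 0, the exception being Dusp7 at -0.03. Both summaries include Dusp4, at 0.25 with an interval of -2.73 to 3.22. Its value ran from -0.706 to 0.771 over the fits that left out 1 library, so its sign is not resolved. Without the 3 libraries that stand apart the counts were 4, 7, 7, 6 and 3. The shares of all genes above belong to the main fit, and none is given for this smaller fit. Over the alternatives other than leaving out single libraries, 2021 to 2903 of all genes were called for Pam3 without TGFβ (2697 in the main fit). For the interaction 1889 to 2577 were called (2352 in the main fit). The lower member counts are not set here against all genes of the same fit.

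Per kilobase of exon, the summed level of the 9 was 110.1 ± 2.00 CPM per kb in untreated cells, 89.4 ± 1.84 in TGFβ, 100.5 ± 2.27 in Pam3 and 100.1 ± 1.22 in Pam3+TGFβ. Dusp3 made up 51.2% of the sum in untreated and 49.8% in Pam3 libraries, but 25.4% in TGFβ and 23.6% in Pam3+TGFβ. Dusp5 made up 10.5% and 8.44% without TGFβ, and 30.7% and 22.9% in TGFβ and Pam3+TGFβ. Dusp6 went from 11.4% in untreated to 19.7%, 16.1% and 28.5% in TGFβ, Pam3 and Pam3+TGFβ, and Dusp16 from 3.10% to 5.17%, 4.84% and 9.11%. Dusp7 went from 20.1% to 15.4%, 17.1% and 10.5%. Dusp1, Dusp2, Dusp4 and Dusp10 together stayed small, Dusp1 being the largest of them at 1.87% to 2.80%. In resting cells the order by level per kilobase was therefore led by Dusp3, then Dusp7, Dusp6 and Dusp5, and with both agents it was led by Dusp6, then Dusp3 and Dusp5. These are descriptions over the same libraries as above and were not tested. With both agents the means of Dusp3 and Dusp5 differed by less than 1 CPM per kb.

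**Figure D3:**
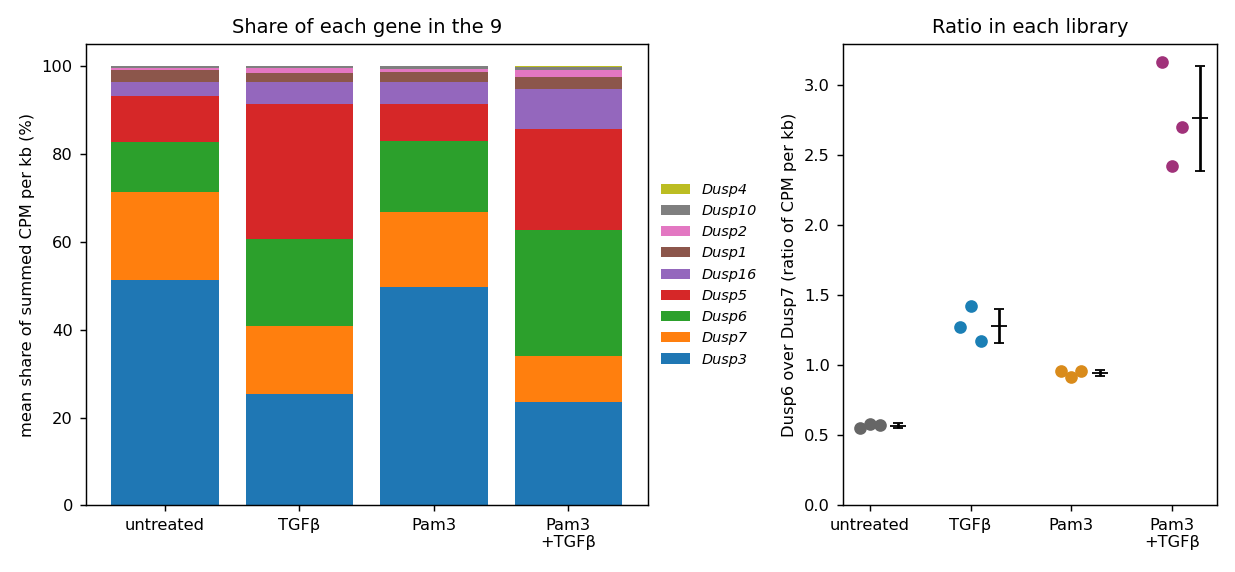
Share of the summed level per kilobase of exon held by each member, in each group (percent, mean of 3 libraries). Dusp3 holds 51.2% and 49.8% without TGFβ and 25.4% and 23.6% with it, and Dusp6 is the largest, at 28.5%, with both agents.

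The other genes of the DUSP superfamily were taken from a list of 21, of which 18 were in the table and 12 passed the filter. In the interaction (10.3% of all genes called higher and 5.67% lower), none of the 12 was called higher and 3 were called lower: Dusp9, the third cytoplasmic ERK phosphatase beside Dusp6 and Dusp7 (-0.43, adjusted p = 0.0326), Dusp18 (-0.73, adjusted p = 0.0132), and Ssh2, a slingshot phosphatase that acts on cofilin (-0.59, adjusted p = 0.00132). Dusp9 stood at 11.6, 14.8 and 12 CPM in untreated libraries, 22.9, 25.5 and 25.8 in TGFβ, 10.6, 10.9 and 11.4 in Pam3, and 16.2, 16.6 and 14.5 in Pam3+TGFβ. TGFβ raised it by 0.95, as it raised Dusp6. Pam3 lowered Dusp9 in cells with TGFβ by -0.65 (adjusted p = 3.59e-06), where it raised Dusp6. TGFβ without Pam3 raised 3 of the 12 (Dusp9, Dusp28 and Ssh2) and lowered 6, beside 22.9% and 28.1% of all genes in those directions. With Pam3 it raised 3 and lowered 3 (21.5% and 23.8% of all genes). Pam3 without TGFβ raised none and lowered 2, Dusp22 and Ssh3 (9.62% and 8.66% of all genes). With TGFβ it raised 2, Dusp11 and Dusp12, and lowered 4 (20.4% and 18.1% of all genes). The median interaction of the 12 was -0.01.

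**Figure D4:**
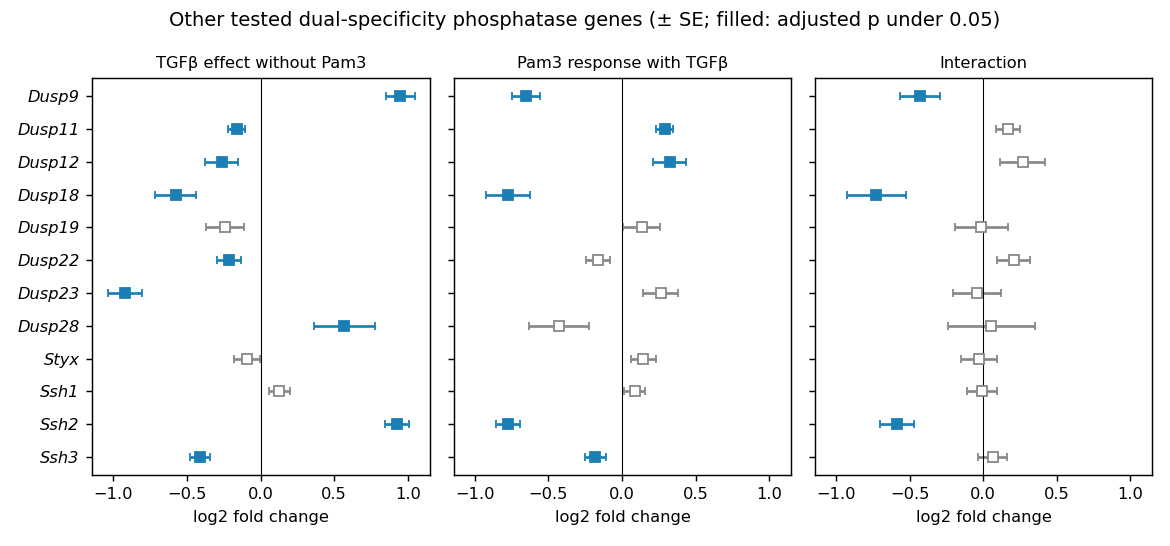
Log2 fold change of the 12 tested other DUSP genes in 3 comparisons: the TGFβ effect without Pam3, the Pam3 response with TGFβ, and the interaction. Bars are ± SE, and filled points are called at an adjusted p under 0.05. In the interaction, the 3 called genes (Dusp9, Dusp18, Ssh2) lie below 0.

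Kinases that the members act on or answer to were read from lists, beside the 15.9% of all genes called in the interaction (10.3% higher, 5.67% lower). Of 9 tested MAP kinases, 1 was called in the interaction, Mapk6 (ERK3, an atypical kinase; 0.35, adjusted p = 0.000471), and Mapk3 (ERK1) was at -0.14 (adjusted p = 0.178). Of 7 MAP2 kinases, Map2k1 (MEK1, which activates ERK) was called higher (0.26, adjusted p = 0.00427) and Map2k6 (which activates p38) lower (-1.48, adjusted p = 0.000205). Map2k6 stood at 5.58, 4.72 and 3.79 CPM in untreated libraries, 8.08, 5.73 and 5.24 in TGFβ, 3.41, 3.93 and 3.24 in Pam3, and 1.72, 1.69 and 1.72 in Pam3+TGFβ, with the last group below all others. Of 15 MAP3 kinases, Map3k14 (NIK; -0.50, adjusted p = 0.0211) and Map3k3 (-0.27, adjusted p = 0.00851) were called lower. Of 10 kinases activated by MAP kinases, 3 were called higher and 1 lower, with Mapkapk2 (MK2, the p38 target kinase that controls cytokine mRNA decay; 0.67, adjusted p = 3.72e-06) and Rps6ka4 (MSK2; 0.44, adjusted p = 0.000133) having the smallest p. Of the 4 other phosphatases of MAP kinases that were tested, none was called. Of 5 Sprouty and Spred genes, which restrain RAS upstream of ERK, Spred1 (0.59, adjusted p = 8.66e-06) and Spred2 (0.30, adjusted p = 0.0465) were called higher and 1 lower. Of 3 genes of the tristetraprolin family of mRNA decay factors, 2 were called higher, Zfp36 (0.62, adjusted p = 1.04e-05) and Zfp36l1 (0.70, adjusted p = 0.037), and Zfp36l2 was called lower (-0.36, adjusted p = 0.00142). These lists differ in size and were not tested against one another.

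For the pair of members with the largest size of interaction, Dusp1 and Dusp2, the genes with the nearest pattern were found by the root mean square difference of centred log2 CPM over the 12 libraries. For Dusp1 these were Crybg1 (0.144), Slc38a6 (0.15), an amino acid transporter family gene, and Pde4dip (0.151). Crybg1, the nearest, stood at 105 CPM in untreated cells, 60.6 in TGFβ, 98.7 in Pam3 and 102 in Pam3+TGFβ. For Dusp2 they were Rgcc (0.206), a cell cycle regulator, Them6 (0.222) and Stk38l (0.224), a kinase of the NDR family. Rgcc had 13 CPM in untreated cells, 22 in TGFβ, 11.9 in Pam3 and 28.7 in Pam3+TGFβ. Dusp2 itself was not called in the interaction.

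Opposite-strand genes overlap annotated exons of Dusp1, Dusp2, Dusp3, Dusp5, Dusp6, Dusp10 and Dusp16, and none overlaps those of Dusp4 or Dusp7. The strand setting of the counting is not given in the sources used here, so a part of those counts may come from the other strand. The canonical transcripts lie on GRCm39 at chr17:26724564-26727493 (minus strand) for Dusp1, chr2:127177957-127180296 (plus) for Dusp2, chr11:101861969-101875625 (minus) for Dusp3, chr8:35274442-35287048 (plus) for Dusp4, chr19:53517532-53530862 (plus) for Dusp5, chr10:99099068-99103361 (plus) for Dusp6, chr9:106245143-106252923 (plus) for Dusp7, chr1:183765870-183807842 (plus) for Dusp10 and chr6:134692431-134769698 (minus) for Dusp16. They hold 3 exons in Dusp3, Dusp6 and Dusp7, 4 in Dusp1, Dusp2, Dusp4, Dusp5 and Dusp10, and 7 in Dusp16.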

How the data were processed

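Raw read counts per gene, whole numbers deposited by the authors for 12 libraries, were the basis of every main value. The design text of the series names FastQC 0.11.7 for read quality, Bowtie2 2.4.1 (defaults) with GRCm39 for alignment, featureCounts of Subread 2.0.0 for the count table and DESeq2 1.36.0 for the authors' own tests. Bowtie2 does not split reads over introns, so reads across exon junctions can be lost. Annotation, strand and multiple alignment in counting are not given in the sources used here. The authors also deposited a normalized signal, which equals the count divided by a constant per library and was used in 1 alternative only.

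Genes passed filterByExpr of edgeR 4.0.16 (R 4.3.3) at a minimum count of 10. The quasi-likelihood test with TMM scaling and the robust option was fitted to all 12 libraries as 4 group means. SE is the size of the log2 fold change over the square root of F. Comparisons of both agents with untreated cells and of Pam3 with TGFβ served only to order levels. Per-kilobase values use the union of GENCODE M39 exons. The test was also run on simulated data, but no value from that run is given, and no call here rests on it. Alternatives were DESeq2-type and upper-quartile scaling, DESeq2 1.42.0, limma-trend (limma 3.58.1) on the normalized values plus 1, other filters, a replicate block, only the 6 libraries compared and leaving out each library. Leaving out 3 libraries together, a covariate and canonical transcript length were added after the data were seen. The members, lists and tests were chosen with earlier results of these data known. The text names all 9 members, up to 2 genes of each list with the smallest p in the interaction, called genes of the other DUSP list, and 3 nearest genes for each of the 2 members with the largest interaction. Some further genes are given after their values were seen. Reads carry no molecular identifiers, so intervals from counts cover counting error only.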

Additional observations from a re-analysis of the deposited data

Results flagged for a closer look

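By the interaction test of edgeR (adjusted p under 0.05), the change with Pam3 depended on TGFβ for 4 of the 9 members: Dusp1 (1.01 on the log2 scale), Dusp16 (0.47), Dusp6 (0.33) and Dusp3 (0.23), where 15.9% of all tested genes were called and 10.3% were called higher. The Dusp6 call was lost without TGFβ replicate 3 (adjusted p = 0.0614), and the Dusp3 call without the 3 libraries that stand apart (0.0909). Each was larger, or less negative, with TGFβ.

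Among the other named genes the same test gave higher values for Zfp36l1 (0.70), Mapkapk2 (0.67), Zfp36 (0.62), Spred1 (0.59), Rps6ka4 (0.44), Mapk6 (0.35), Spred2 (0.30) and Map2k1 (0.26). It gave lower values for Map2k6 (-1.48), Dusp18 (-0.73), Ssh2 (-0.59), Map3k14 (-0.50), Dusp9 (-0.43), Zfp36l2 (-0.36) and Map3k3 (-0.27). Single values were not screened with Dixon's test, which was not applied to groups of 3 libraries.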

How the results depend on the processing

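Over all alternatives, no member changed sign in a called comparison, and of the recomputed log2 fold changes of the members 934 kept their side of the threshold, 31 became weaker and 8 stronger. Leaving out 1 library at a time gave 5 to 6, 6 to 8, 6 to 7, 6 to 7 and 3 to 4 called members for the Pam3 response without and with TGFβ, the TGFβ effect without and with Pam3, and the interaction, Dusp4 included. Over all genes the same fits called 1965 to 2729, 4856 to 6152, 6923 to 7580, 5984 to 7085 and 1902 to 2430. Dusp2 with TGFβ passed under DESeq2 (adjusted p = 0.0456), limma-trend (0.0487), at least 10 counts in every library (0.0375) and the 6 libraries compared (0.0205). Dusp4 lost its Pam3 call without TGFβ with no filter (0.0665) and with the covariate (0.0661), its TGFβ call with Pam3 under limma-trend (0.0551) and no filter (0.0707), and could not be fitted with at least 10 counts in every library. Its Pam3 response without TGFβ had a value in 8 of the 10 alternatives other than leaving out 1 library. Upper-quartile scaling moved the median of all genes by at most 0.0617 and the split of calls from 1516 higher and 836 lower to 1255 and 1097 in the interaction, and from 3008 and 2670 to 2477 and 3489 in the Pam3 response with TGFβ. With canonical transcript lengths Dusp16 held 4.57% of the summed level in untreated and 13% in Pam3+TGFβ libraries, and Dusp3 (50.8%) and Dusp6 (28.8%) still led in those groups. With the same lengths Dusp1 held from 2.74% in TGFβ to 3.95% in Pam3+TGFβ libraries. The cause of these changes was not tested.

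With the replicate number as a block, 5, 7, 7, 7 and 4 members and 2751, 5714, 7562, 6736 and 2393 of all 14749 genes were called, Dusp4 losing its Pam3 call without TGFβ (adjusted p = 0.0613). Same-numbered libraries of different groups had deviations correlated from -0.174 to 0.3, over 0.1 in 7 of 18 pairs (median 0.0614), against 8 of 36 pairs with different numbers (median -0.0578). No label ties the numbers to a shared source and not every pair was over 0.1, so the numbers were not taken to pair the samples. The few counts of Dusp4, Dusp2 and Dusp10 limit what can be said of them.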
